A study of Mus musculus with 18 samples.

Results

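Superoxide dismutases and the enzymes that remove peroxides were followed across brown and white fat of mice with raised FXR and of their controls. The 10 genes were the superoxide dismutases Sod1, Sod2 and Sod3, catalase (Cat), the glutathione peroxidases Gpx1, Gpx3 and Gpx4, the peroxiredoxins Prdx3 and Prdx5, and thioredoxin reductase 1 (Txnrd1). They were listed by name with earlier results of these data known, as were the gene lists used below. Counts of calls over these genes and lists are therefore given as a description. Each gene was read from its brightest probe set with a single gene symbol. Of the 10, 9 had such a probe set among the 19937 genes tested, and Prdx5 is not analysed here. Sod2 was chosen by its measured changes, lower with FXR in brown fat and higher with FXR in white fat, so those changes with FXR are described and were not tested, and the other 8 measured genes were tested.

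Superoxide is made when single electrons leak to oxygen, above all in the mitochondrial respiratory chain, and by NADPH oxidases. Superoxide dismutases turn it into hydrogen peroxide: Sod1 in the cytosol, Sod2 in the mitochondrial matrix and Sod3 outside the cell. Catalase, glutathione peroxidases and peroxiredoxins then remove the peroxide, the last of these with electrons that reach them from NADPH through thioredoxin reductase and thioredoxin. Brown fat is dense in mitochondria and burns lipid to make heat, whereas white fat stores it.

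The study asked how FXR, the farnesoid X receptor, a nuclear receptor activated by bile acids, alters adipose tissue. FXR mice overexpressed human FXR specifically in adipose tissue, per the labels, which do not give the promoter, and control mice were wild type. All were male, 10 weeks old, on a C57BL/6J background and fed chow, and 500 ng of total RNA was labelled with biotin for 1-colour Affymetrix mouse gene arrays. The 18 arrays held brown adipose tissue (BAT) of 5 FXR and 5 control samples and white adipose tissue (WAT) of 4 FXR and 4 control samples, 1 sample per array. The extract text of control BAT 2 and 4 also names 6 weeks of feeding. The WAT depot, and whether a mouse gave both tissues, are not stated in the labels.

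Promoter sequence shows the setting of the genes the results turn on. The RefSeq table of GRCm38.p6 matched 8 of the measured genes, with 13 start sites, and the 250 bases before each start were searched on both strands for 3 motifs. The GC box GGGCGG, bound by Sp1, was in 9 of the 13 windows (7 of the 8 genes), against 32.7% of all 32851 promoter windows. Gpx4 supplied 4 of the 13 windows, and some of these overlap, so the same boxes count more than once. The antioxidant response element core TGACNNNGC, known as the binding sequence of NRF2, was in 2 windows, of Sod1 and Txnrd1, against 10.2% of all windows. The inverted repeat GGTCANTGACC, the form of element known to bind FXR with its partner RXR, was in 0 of the 13 windows and in 0.0335% of all windows; these letters were not in the windows searched, which says nothing of FXR itself. Sod2, chosen for its opposite changes, held 4 GC boxes on the plus strand, beginning 124, 109, 91 and 67 bases before the start, in capitals in its window chr17:13007589-13007838 (GRCm38.p6, plus strand, 63.6% GC).
Sod2: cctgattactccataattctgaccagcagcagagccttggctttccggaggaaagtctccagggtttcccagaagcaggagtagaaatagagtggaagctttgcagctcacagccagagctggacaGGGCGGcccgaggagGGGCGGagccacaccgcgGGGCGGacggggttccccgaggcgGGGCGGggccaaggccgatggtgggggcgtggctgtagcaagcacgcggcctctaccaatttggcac
Sod1 and Txnrd1, both lower with FXR in BAT, are shown for the antioxidant response element core, whose match lies on the minus strand 56 bases before the Sod1 start and 92 bases before the Txnrd1 start and is in capitals. Txnrd1 had 3 windows, of which 1 held the core, and Cat, also lower with FXR in BAT, held none. The stretches are chr16:90220612-90220761 (plus strand, 70.0% GC) and chr10:82859056-82859205 (plus strand, 61.3% GC).
Sod1: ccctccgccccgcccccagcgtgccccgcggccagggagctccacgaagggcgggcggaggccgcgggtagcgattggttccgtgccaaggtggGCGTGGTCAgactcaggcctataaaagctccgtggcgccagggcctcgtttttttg
Txnrd1: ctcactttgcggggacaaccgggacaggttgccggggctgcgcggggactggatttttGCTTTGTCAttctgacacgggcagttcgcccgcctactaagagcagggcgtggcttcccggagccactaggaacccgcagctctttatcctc
Sod1 also held GC boxes in this stretch, as pairs that overlap each other, 102 and 98 bases before the start on the plus strand and 146 and 141 bases before it on the minus strand. A match is a description of the letters and not evidence of a bound site.

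Values are the deposited intensities, which lie on a linear scale, and every test ran on log2(intensity + 1). Array medians were 97.6 to 99.9 in FXR BAT, 93.1 to 97.8 in control BAT, 60.5 to 61.5 in FXR WAT and 60.7 to 61.7 in control WAT, so the 2 tissues were not on 1 distribution. Across genes, arrays of the same group correlated at 0.973 to 0.994 in FXR BAT, 0.992 to 0.995 in control BAT, 0.979 to 0.992 in FXR WAT and 0.983 to 0.992 in control WAT. The brown adipocyte markers, Ucp1 among them, summed to 19065 to 22950.3 in FXR BAT, 27112 to 33059 in control BAT, 716 to 745 in FXR WAT and 649.6 to 686 in control WAT. Of the 10 brown markers, 6 were dim, within 1.5-fold of the 1% quantile, on every FXR WAT array and 8 on every control WAT array, and 0 in either BAT group. Skeletal muscle markers summed to 37657, 26109, 2606, 36902 and 8235 on FXR BAT arrays 1 to 5, against 2374 to 11266 on control BAT arrays and 1006 to 1171 on WAT arrays. FXR BAT 1, 2 and 4 therefore stand apart, and counts in BAT are also given without them. All 9 measured genes were above the dim range on every array, the lowest of them Sod3 at 2.09 times and Txnrd1 at 2.42 times the array's 1% quantile.

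**Figure D1:**
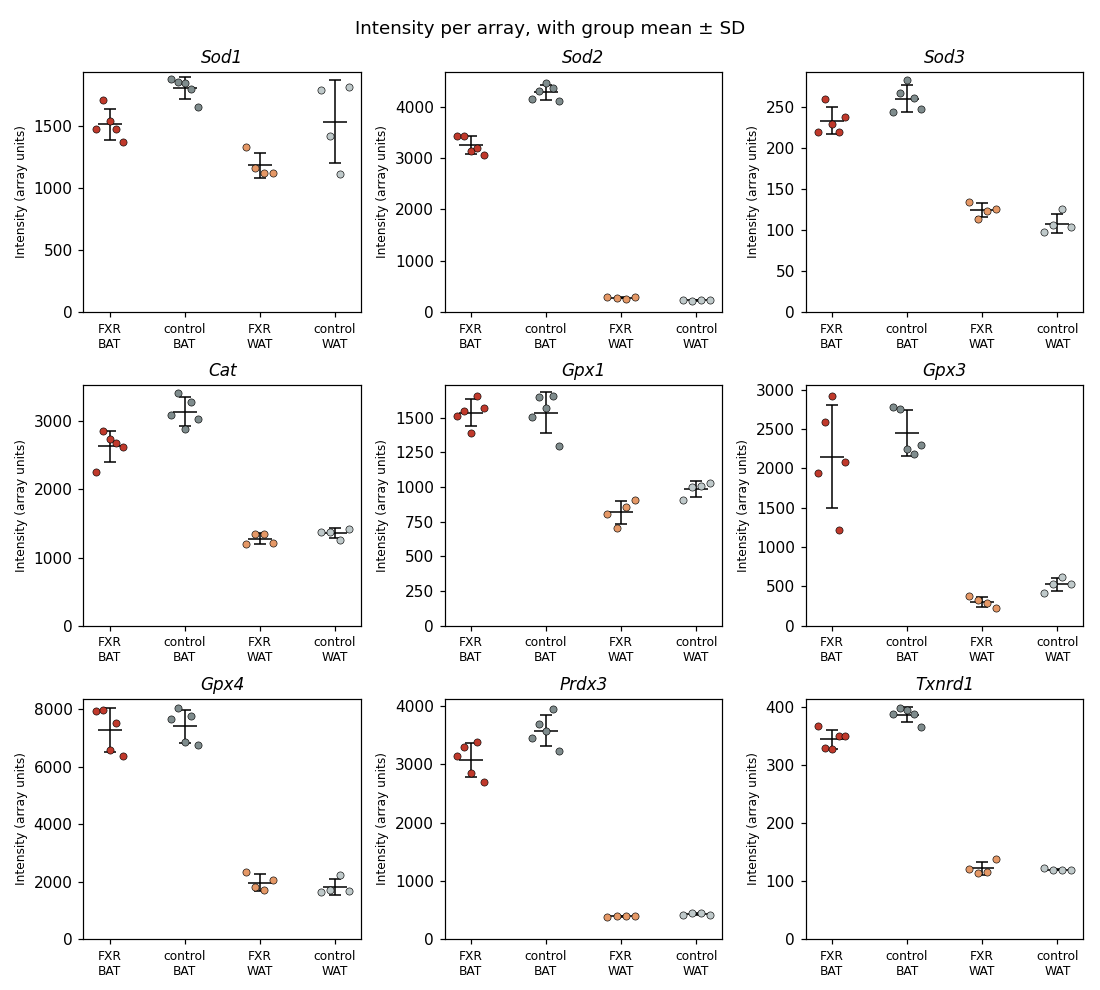
Intensity in array units (vertical axis, from 0) of the 9 measured genes on each of the 18 arrays, by group, with group mean and SD. Sod2 lies between 3057 and 3435 in FXR BAT, below control BAT at 4111 to 4469.9, and between 262 and 302 in FXR WAT, above control WAT at 219 to 236.

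Of the superoxide dismutases, Sod1 fell with FXR in BAT, Sod2 was lower and Sod3 did not pass the test. Sod2, the mitochondrial enzyme, read 3428, 3435, 3134, 3205 and 3057 in FXR BAT, against 4161, 4314, 4469.9, 4366 and 4111 in control BAT. All 5 FXR arrays lay below all 5 control arrays, a log2 difference of -0.40 (0.759-fold; -0.21 after quantile normalization), which is a value that chose the gene. Sod1 read 1477, 1715, 1548, 1479 and 1371 in FXR BAT, against 1882, 1862, 1847, 1802 and 1656 in control BAT. The groups overlapped through FXR BAT 2 and control BAT 5, and Sod1 fell by 0.26 ± 0.06 on the log2 scale (SE, n = 5 and 5, Benjamini-Hochberg adjusted p = 0.0127 over all genes, limma), a level 0.837-fold that of controls. Sod3 read 219, 259, 229, 219.7 and 237 in FXR BAT, against 243, 266, 283, 260.4 and 247 in control BAT. Its difference of -0.16 ± 0.06 (SE, adjusted p = 0.0799, limma) did not pass the threshold of 0.05, and FXR BAT 2 lay within the control range.

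Catalase, which breaks down hydrogen peroxide in peroxisomes, also fell in BAT. Cat read 2258, 2864, 2734, 2684 and 2626 in FXR BAT, against 3091, 3419, 2888, 3287 and 3042 in control BAT. The groups did not overlap, though FXR BAT 2 and control BAT 3 nearly touched, and the log2 difference was -0.26 ± 0.07 (SE, n = 5 and 5, adjusted p = 0.0215, limma; 0.836-fold). Without control BAT 2 the adjusted p for Cat was 0.0580 and without control BAT 4 it was 0.0571 (limma), so this call rested on either array.

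The glutathione peroxidases, which reduce peroxides with glutathione and carry selenium, gave no call in BAT. Gpx1, the cytosolic and mitochondrial form, read 1511, 1546, 1391, 1655 and 1572 in FXR BAT, against 1506, 1648, 1572, 1658 and 1294 in control BAT, a log2 difference of 0.0026 ± 0.07 (SE, adjusted p = 0.988, limma). Gpx4, which reduces lipid peroxides in membranes, read 7930.5, 7959.8, 6576, 7525 and 6358 in FXR BAT, against 7651, 8034, 6863, 7772 and 6748 in control BAT. For both genes the ranges of the groups lay over each other, and the Gpx4 difference was -0.03 ± 0.08 (SE, adjusted p = 0.852, limma), with -0.012 for its second probe set (0.17 in WAT). Gpx3, the secreted plasma form, read 1948, 2587, 2924, 1214 and 2084 in FXR BAT, against 2781, 2758, 2249, 2187 and 2295 in control BAT. The FXR arrays spread wider than the controls (SD 654 and 291) and reached both above and below them, and the difference of -0.24 ± 0.20 (SE, adjusted p = 0.488, limma) was within that spread. FXR BAT 4, the lowest for Gpx3, was among the 3 arrays with high muscle markers, and FXR BAT 3, the highest, had 2606 summed muscle intensity. FXR BAT 2, also with high muscle markers (26109), read 2587 for Gpx3, above FXR BAT 5 at 2084 with muscle markers at 8235. The part of these markers in the Gpx3 values was not tested.

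The thioredoxin arm was lower in part. Txnrd1, the cytosolic selenoenzyme that recharges thioredoxin, read 367, 329, 328, 349.7 and 349 in FXR BAT, against 388, 398, 394, 389 and 365 in control BAT. The groups overlapped at FXR BAT 1 and control BAT 5, and Txnrd1 fell by 0.17 ± 0.04 (SE, n = 5 and 5, adjusted p = 0.0155, limma; 0.891-fold). Prdx3, the mitochondrial peroxiredoxin, read 3148, 3296, 2846, 3391 and 2704 in FXR BAT, against 3456, 3688, 3569, 3949 and 3227 in control BAT. Control BAT 5 lay below 2 FXR arrays, and the difference of -0.22 ± 0.07 (SE, adjusted p = 0.0594, limma) missed the threshold.

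In all, 3 of the 8 tested genes (Sod1, Cat and Txnrd1) fell in BAT and 0 rose, where 8.72% of all genes fell, 7% rose and 15.7% were called in either direction. Cat was the 1 tested gene whose groups did not overlap, against 6.28% of all genes with every FXR array lower, 5.88% with every FXR array higher and 12.2% in either direction. The median difference of the 8 genes was -0.19, beside 0.011 for all genes. Without FXR BAT 1, 2 and 4 the called genes were Sod1, Prdx3 and Txnrd1, with Prdx3 at -0.36 (adjusted p = 0.0167, limma) and Cat at -0.23 (adjusted p = 0.0700, limma). Without control BAT 2 and 4, 0 of the 8 were called (limma), with Sod1 at -0.24, Cat at -0.20 and Txnrd1 at -0.15. Scaling also decided these calls: after quantile normalization of the 18 arrays Gpx4 alone was called, at 0.16, with Sod1 at -0.11, Cat at -0.10 and Txnrd1 at -0.09, and centring each array on its median gave 5 falls, adding Sod3 and Prdx3.

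**Figure D2:**
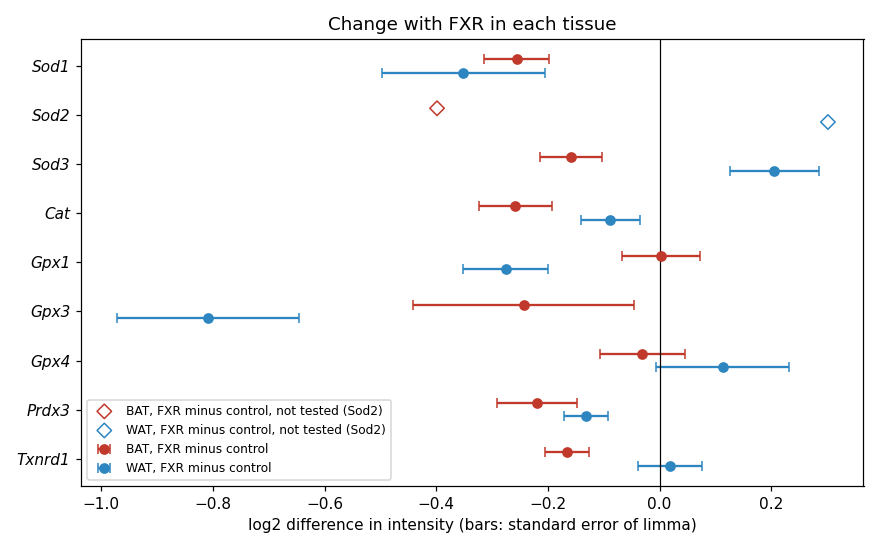
Log2 difference in intensity, FXR minus control, for each measured gene in BAT and in WAT, with the standard error of limma as bars, and Sod2 as open diamonds without a bar because its changes chose it. Sod1, Cat, Gpx3 and Prdx3 lie left of 0 in both tissues, and Sod2, Sod3, Gpx4 and Txnrd1 lie on opposite sides. Of the latter, Gpx4 in both tissues and Txnrd1 in WAT lie within their standard error of 0. Gpx1 lies at 0.0026 in BAT and -0.28 in WAT.

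Other cell types moved in the same comparison. In BAT, 10 of 10 fibroblast markers and 12 of 12 macrophage markers rose, while 7 of 9 mature adipocyte markers and 9 of 10 brown adipocyte markers fell. Of all genes 7% rose and 8.72% fell. Without FXR BAT 1, 2 and 4 the called markers were 10, 11, 3 and 8 of these lists, beside 1914 of all 19937 genes. Without control BAT 2 and 4 they were 9, 10, 4 and 8, beside 1411 of all genes. Fibroblast markers summed to 12466 to 15340 in FXR BAT, against 5003 to 7751 in control BAT. Macrophage markers summed to 2654 to 3276 in FXR BAT, against 1424 to 1948 in control BAT. Mature adipocyte markers summed to 24959 to 28631 in FXR BAT, against 31354 to 34944 in control BAT, and none of these sums overlapped between the groups. Of the 15 muscle markers 2 rose and 13 were not called, with a median difference of 1.77. No marker of these lists was dim on every array of a BAT group except Msr1, a macrophage scavenger receptor, in control BAT. In such bulk tissue fewer cells of a type and less RNA per cell cannot be told apart, and the part of these markers in the falls of Sod1, Cat and Txnrd1 was not tested.

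**Figure D3:**
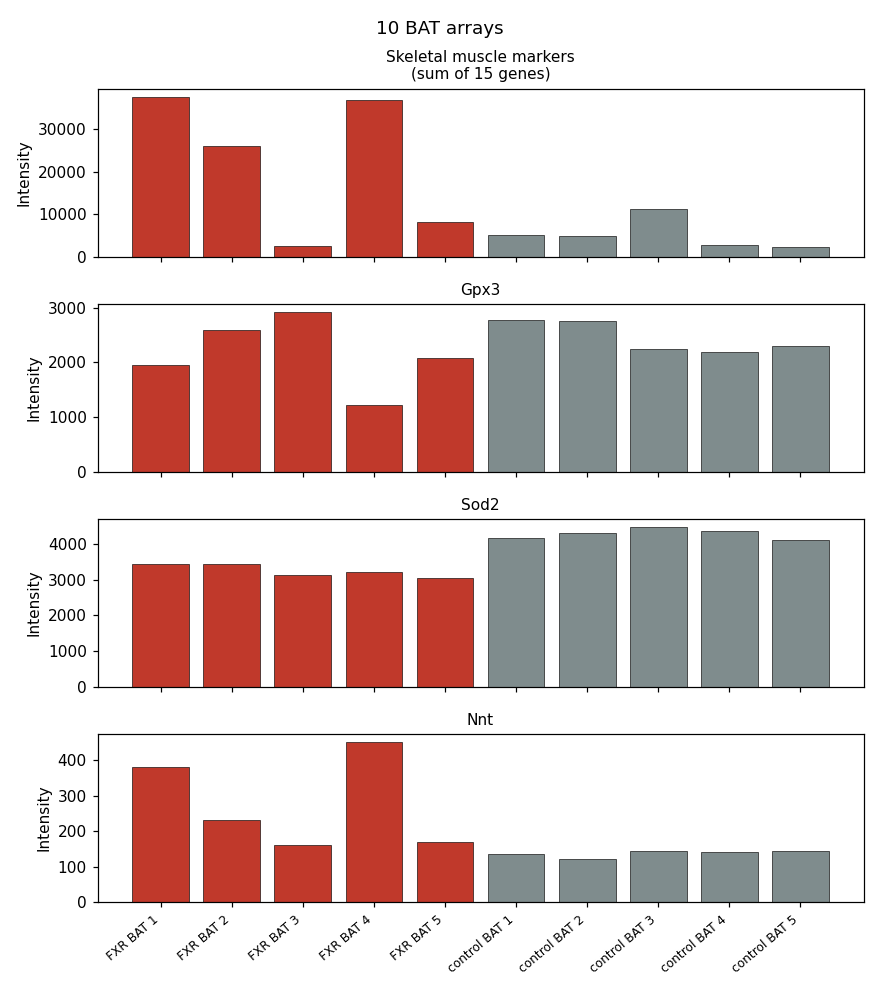
Intensity in array units (vertical axes, from 0) on the 10 BAT arrays for the sum of 15 skeletal muscle markers, Gpx3, Sod2 and Nnt, with FXR arrays in red and control arrays in grey. Muscle markers reach 37657, 26109 and 36902 on FXR BAT 1, 2 and 4, where Nnt reads 379, 231 and 451, while Sod2 is below control BAT on all 5 FXR arrays.

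The genes that work with these enzymes were read from lists, chosen with earlier results of these data known. The related family, thioredoxin, glutathione, NADPH, NRF2 and selenoprotein lists had 3, 6, 4, 4, 2 and 1 called genes in BAT. They held 11, 15, 18, 11, 13 and 9 measured genes, and 15.7% of all genes were called. Without FXR BAT 1, 2 and 4 they had 1, 8, 5, 8, 1 and 0, beside 1914 of all 19937 genes. Without control BAT 2 and 4 they had 1, 4, 2, 3, 0 and 1, beside 1411 of all genes. Of 11 related peroxiredoxins, glutathione peroxidases and reductases, 2 fell and 1 rose in BAT, with a median of -0.017. Txnrd2, the mitochondrial thioredoxin reductase, fell by 0.34 ± 0.03 (SE, adjusted p = 6.88e-05, limma), reading 292 to 309 in FXR BAT and 367 to 394 in control BAT. Gpx8, an endoplasmic reticulum peroxidase, fell by 0.87 ± 0.23 (adjusted p = 0.0238, limma). The Gpx8 call was lost without control BAT 3 (0.0582), without control BAT 2 and 4 (0.0951), without FXR BAT 1, 2 and 4 (0.144) and after quantile normalization (0.0561). Prdx4, the endoplasmic reticulum peroxiredoxin, rose by 0.21 ± 0.06 (adjusted p = 0.0496, limma), a call lost in 8 of the 10 fits that omit 1 array each. Of 15 thioredoxin and glutaredoxin genes 5 fell, 1 rose and 9 were not called. Msrb2, a mitochondrial methionine sulfoxide reductase, fell by 0.47 ± 0.04 (adjusted p = 7.65e-05, limma), and Glrx5, a mitochondrial glutaredoxin of iron-sulfur cluster assembly, fell by 0.38 ± 0.05 (adjusted p = 0.000431, limma). Sesn1, a stress-responsive sestrin, rose by 0.33 ± 0.03 (adjusted p = 0.000149, limma). Txnrd2, Glrx5, Msrb2 and Sesn1 were called at each of the 20 alternative settings run for BAT.

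Genes of glutathione and NADPH supply were called in both directions in BAT, where 15.7% of all genes were called. Of 18 glutathione genes 2 rose, 2 fell and 14 were not called, with a median of 0.0075. The transferases Mgst3 and Gstm2 rose by 0.47 ± 0.06 and 0.26 ± 0.05 (adjusted p = 0.000422 and 0.00518, limma), and Gclm, the modifier subunit of the enzyme that limits glutathione synthesis, fell by 0.23 ± 0.06 (adjusted p = 0.0212, limma), a call lost without control BAT 2 (0.0505) or FXR BAT 5 (0.0516) and after quantile normalization (-0.14, 0.145). Of 11 NADPH genes 3 fell, 1 rose and 7 were not called. Idh1, the cytosolic NADPH-making isocitrate dehydrogenase, and the NAD kinases Nadk and Nadk2 fell by 0.25 ± 0.05, 0.39 ± 0.07 and 0.34 ± 0.06 (adjusted p = 0.00762, 0.0038 and 0.00429, limma). After quantile normalization Idh1 was at -0.06 (adjusted p = 0.519, limma), and Nadk and Nadk2 were still called at -0.24 and -0.22. Nnt, the mitochondrial transhydrogenase that makes NADPH, in which C57BL/6J mice are known to carry a deletion, read 379, 231, 161, 451 and 169 in FXR BAT, against 134, 122, 144, 141 and 143 in control BAT. It rose by 0.89 ± 0.26 (adjusted p = 0.0391, limma) and was named after its values were seen. Its 3 highest arrays were FXR BAT 1, 2 and 4, those with high muscle markers, whose part in it was not tested.

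The NRF2 list, the pathway that induces antioxidant genes, held 1 rise, 1 fall and 11 uncalled genes of 13, with a median of 0.07. This count and the selenoprotein count below stand beside 15.7% of all genes called in BAT. Cbr3, a carbonyl reductase, rose by 0.16 ± 0.04 (adjusted p = 0.0307, limma) and Fth1, the ferritin heavy chain, fell by 0.22 ± 0.06 (adjusted p = 0.0420, limma), calls lost in 6 and 8 of the 10 fits that omit 1 array each and after quantile normalization (0.09 and -0.08). Of 9 selenoprotein synthesis genes, which the glutathione peroxidases and Txnrd1 depend on, 1 fell and 8 were not called. That gene, Sephs2, which makes the selenium donor selenophosphate, fell by 0.64 ± 0.12 (adjusted p = 0.00406, limma; 0.0593 without FXR BAT 1, 2 and 4), reading 654 to 929.8 in FXR BAT and 944 to 1386 in control BAT.

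Genes of superoxide sources and of the respiratory chain were called in opposite directions in BAT, where 7% of all genes rose and 8.72% fell. Without control BAT 2 and 4, 1411 of all 19937 genes were called, and without FXR BAT 1, 2 and 4, 1914. Of 10 superoxide sources 6 rose and 0 fell, and 3 were called without control BAT 2 and 4 and 3 without FXR BAT 1, 2 and 4. This list, like the others, was chosen with earlier results of these data known. Nox4, an oxidase that releases hydrogen peroxide, read 220.4 to 257 in FXR BAT and 83.6 to 97.8 in control BAT, a rise of 1.44 ± 0.06 (adjusted p = 3.27e-07, limma; 2.72-fold). Cybb and Ncf1, parts of the phagocyte oxidase, rose by 0.78 ± 0.08 and 0.30 ± 0.05 (adjusted p = 0.000142 and 0.00187, limma), beside the rise of 12 of 12 macrophage markers, whose part in it was not tested. Of 19 oxidative phosphorylation genes 17 fell and 2 were not called, with a median of -0.26, and 4 were called without control BAT 2 and 4 and 14 without FXR BAT 1, 2 and 4. Sdhd of complex II fell by 0.39 ± 0.05, Ndufb8 of complex I by 0.25 ± 0.04 and Uqcrc1 of complex III by 0.30 ± 0.05 (adjusted p = 0.000604, 0.00141 and 0.00153, limma). After quantile normalization Sdhd was at -0.20 and still called, and Ndufb8 and Uqcrc1 were at -0.11 each (adjusted p = 0.150 and 0.238, limma). The list summed to 61732 to 71685 in FXR BAT, against 75929 to 86088 in control BAT.

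In WAT none of the 8 tested genes passed the threshold, and Sod2 lay above its controls. Sod2 read 302, 282, 262 and 286 in FXR WAT, against 227, 219, 236 and 235 in control WAT. All 4 FXR arrays lay above all 4 control arrays, a log2 difference of 0.30 (1.23-fold), which again is part of how the gene was chosen. Sod1 read 1331, 1161, 1120.5 and 1128 in FXR WAT, against 1792, 1424, 1115 and 1820.4 in control WAT. Control WAT 3 lay below every FXR array, and the difference of -0.35 ± 0.15 (SE, n = 4 and 4, adjusted p = 0.368, limma) did not pass. Sod3 read 134, 113, 123 and 125 in FXR WAT, against 96.9, 106, 125 and 103 in control WAT, a difference of 0.20 ± 0.08 (SE, adjusted p = 0.325, limma) with overlap at control WAT 3.

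Gpx3 gave the largest difference of the 8 tested genes in WAT. It read 375, 321, 282 and 224 in FXR WAT, against 415, 524, 622 and 532 in control WAT. No FXR array reached a control array, and the log2 difference of -0.81 ± 0.16 (SE, n = 4 and 4, adjusted p = 0.0550, limma; 0.571-fold) lay just outside the threshold. It was called after quantile normalization (-0.90, adjusted p = 0.0144, limma), after a filter on dim genes (adjusted p = 0.0348, limma) and with a trended, robust fit (adjusted p = 0.0392, limma). Gpx1 read 803, 705, 854 and 905.3 in FXR WAT, against 905.6, 1003, 1004 and 1031 in control WAT. The groups met without crossing at FXR WAT 4 and control WAT 1, and the difference was -0.28 ± 0.08 (SE, adjusted p = 0.141, limma). After quantile normalization it was -0.39 (adjusted p = 0.0391, limma).

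Prdx3 read 378, 404, 391 and 390.1 in FXR WAT, against 409, 439, 449 and 417 in control WAT, without overlap, and the difference of -0.13 ± 0.04 (SE, adjusted p = 0.169, limma) was not called. Cat read 1205, 1348, 1344 and 1216 in FXR WAT, against 1373, 1378, 1260.3 and 1422 in control WAT, a difference of -0.09 ± 0.05 (SE, adjusted p = 0.572, limma). Gpx4 and Txnrd1 differed by 0.11 ± 0.12 and 0.02 ± 0.06 (SE, adjusted p = 0.791 and 0.948, limma), with overlapping groups. Of the 8 tested genes 0 were called in WAT (limma), where 1.32% of all genes were called, 0.863% as rises and 0.456% as falls. An unadjusted p under 0.05 was found for 5 of the 8, against 12.5% of all genes. Omitting 1 WAT array at a time left the count of members at 0 in all 8 fits. Gpx1, Gpx3 and Prdx3, 3 of 8, had every FXR array below every control array, against 3.47% of all genes in that direction, 4.31% in the other and 7.77% in either. The median difference of the 8 genes was -0.11, beside 0.00098 for all genes.

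The related lists were nearly without calls in WAT, where 1.32% of all genes were called, 0.863% as rises and 0.456% as falls. In limma's fit 0 genes were called among the 11 related family members, 15 thioredoxin and glutaredoxin genes, 18 glutathione genes, 11 NADPH genes, 9 selenoprotein synthesis genes and 10 superoxide sources, and 2, 2, 5, 3, 1 and 1 of them had an unadjusted p under 0.05, as did 12.5% of all genes. Of the NRF2 list Ephx1, microsomal epoxide hydrolase, rose by 0.50 ± 0.08 (adjusted p = 0.0290, limma), reading 281 to 335 in FXR WAT and 198 to 244 in control WAT, a call lost in 5 of the 8 fits that omit 1 array each. Of the oxidative phosphorylation genes 2 of 19 fell. Uqcrc2 of complex III fell by 0.36 ± 0.04 (adjusted p = 0.0114, limma), a call kept in all 8 such fits, and Sdha of complex II fell by 0.34 ± 0.06 (adjusted p = 0.0422, limma), a call lost in 7 of the 8. Fibroblast markers summed to 8684 to 12503 in FXR WAT, against 6316 to 8803 in control WAT, with 0 of 10 called (limma) and 6 at an unadjusted p under 0.05. Macrophage markers summed to 2438 to 3196 in FXR WAT, against 2246 to 2973 in control WAT, and 1 of 9 mature adipocyte markers fell.

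**Figure D4:**
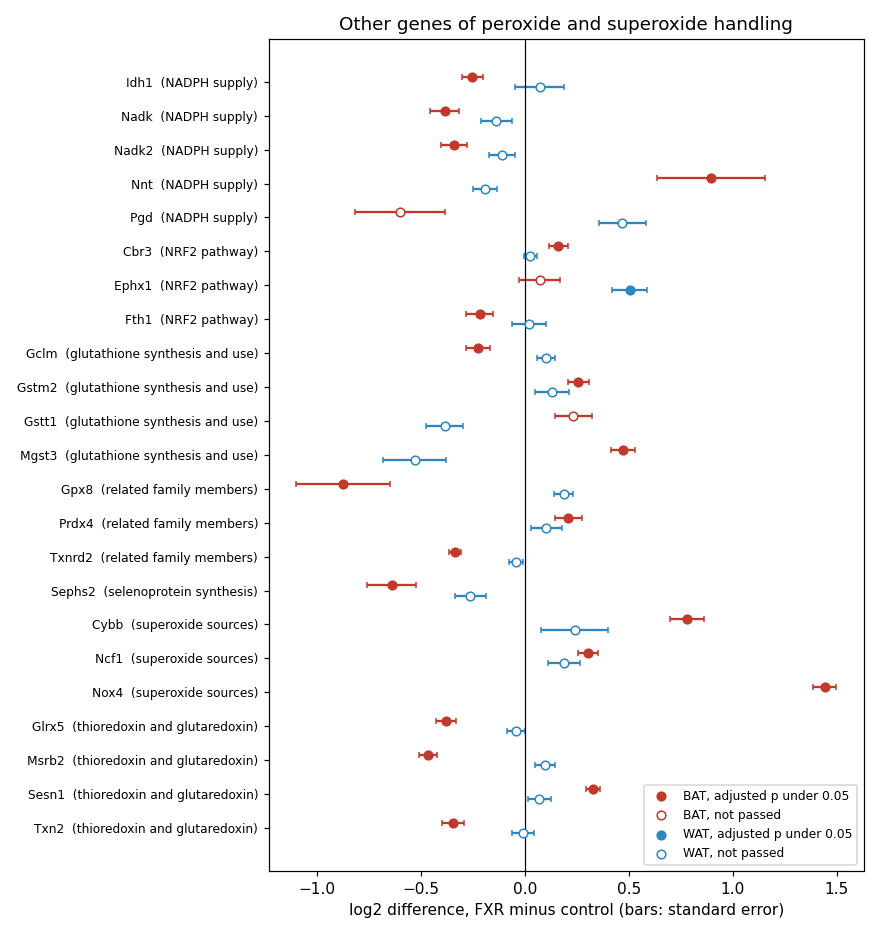
Log2 difference, FXR minus control, for the 23 pathway genes named outside oxidative phosphorylation, by list, in BAT and in WAT, with standard errors and filled points where the adjusted p was under 0.05. Nox4 stands at 1.44 in BAT and has no WAT point, being dim on all 8 WAT arrays, and Ephx1 is the 1 filled WAT point, at 0.50.

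The change with FXR was compared between tissues as the change in WAT minus the change in BAT, over all 18 arrays. Sod3 was the 1 of the 8 tested genes that differed, at 0.36 ± 0.10 (SE, adjusted p = 0.0365, limma), from 0.20 in WAT and -0.16 in BAT, neither of which was called alone. Of all genes 6.47% differed in either direction and 4.43% in this direction. The Sod3 call was lost in 12 of the 18 fits that omit 1 array, and it remained without control BAT 1 or 5, FXR BAT 2 or 3, control WAT 3 or FXR WAT 2. Over the 27 alternatives its adjusted p ran from 0.00780 to 0.114 (limma), and the difference stayed positive. Txnrd1 differed by 0.18 ± 0.07, Gpx1 by -0.28 ± 0.11 and Gpx3 by -0.57 ± 0.28 (adjusted p = 0.131, 0.150 and 0.286, limma), and the other 4 had adjusted p between 0.325 and 0.814 (limma). Sod2 differed by 0.70 (0.48 after quantile normalization), a value fixed by its choice and not tested. The median of the 8 genes was 0.12, beside -0.0086 for all genes.

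Some mitochondrial genes were among the genes of the lists whose change differed between tissues, where 6.47% of all genes differed. Of 15 thioredoxin and glutaredoxin genes 3 differed upwards, 1 downwards and 11 were not called. Of 19 oxidative phosphorylation genes 1 differed and 18 were not called. The mitochondrial Prdx3 was not called (adjusted p = 0.675, limma), and the mitochondrial Nnt differed the other way, at -1.09. The Nnt call was lost in 15 of the 18 fits that omit 1 array. Without FXR BAT 1, 2 and 4, those with high muscle markers, Nnt was at -0.46 (adjusted p = 0.00964, limma). Msrb2, Txnrd2, Glrx5 and Txn2, the mitochondrial thioredoxin, differed by 0.56 ± 0.07, 0.29 ± 0.04, 0.34 ± 0.07 and 0.33 ± 0.08 (adjusted p = 0.000148, 0.000798, 0.00671 and 0.0157, limma). In WAT Msrb2 and Txnrd2 were low, down to 2.19 and 1.99 times the array's 1% quantile, where changes are smaller on this scale. Gclm differed by 0.33 ± 0.08 (adjusted p = 0.0155, limma) and Sdhd by 0.35 ± 0.07 (adjusted p = 0.00428, limma). Mgst3 differed by -1.003 ± 0.16 (adjusted p = 0.00154, limma), and it and Msrb2 were called at all 27 alternatives. After quantile normalization the calls of Txnrd2 (0.19), Glrx5 (0.15), Txn2 (0.14), Gclm (0.24) and Sdhd (0.11) were lost, with adjusted p of 0.105 to 0.421 (limma). Nox4 was dim on all 8 WAT arrays, at 54.3 to 62.5, so its change in WAT was not measured and no difference is given. Beside these, 9 of 10 brown adipocyte markers differed upwards and 6 of 10 fibroblast markers downwards, and their part was not tested. Of the 10 brown markers, 6 were dim on every FXR WAT array and 8 on every control WAT array. The change of these dim markers in WAT was not measured, so their differences rest on their change in BAT.

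Levels in the 2 tissues were set side by side in controls. On the deposited scale 7 of the 8 genes other than Sod2 were higher in control BAT than in control WAT, but so were 94.8% of all genes, with 1.98% lower, 96.8% called in either direction and a median difference of 0.59, so these values are read beside 2 other scalings. Sod2, whose control levels entered its choice, is given without a test. It averaged 4284 ± 148 in control BAT (SD, n = 5) and 229 ± 7.69 in control WAT (SD, n = 4), a log2 difference of 4.22 (18.6-fold). It was 3.59 with each array centred on its median and 2.61 after quantile normalization. Prdx3 averaged 3578 ± 268 in control BAT and 429 ± 18.8 in control WAT (SD), a difference of 3.06 ± 0.06 (SE, adjusted p = 2.02e-12, limma; 8.32-fold), with 2.43 and 1.40 under these scalings. Beside these mitochondrial enzymes, 19 of 19 oxidative phosphorylation genes were higher in control BAT, with a median of 3.31.

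The other genes followed at smaller differences. Gpx3, Gpx4 and Txnrd1 were higher in control BAT by 2.23 ± 0.11, 2.03 ± 0.09 and 1.68 ± 0.03 (SE, adjusted p = 3.49e-09, 1.08e-09 and 3.71e-12, limma) and stayed higher at 0.61, 0.41 and 0.41 after quantile normalization. Sod3 differed by 1.27 ± 0.07 (adjusted p = 8.17e-09, limma) but by 0.13 after quantile normalization (adjusted p = 0.0957, limma). Cat differed by 1.21 ± 0.05 (adjusted p = 1.30e-09, limma) and Gpx1 by 0.63 ± 0.07 (adjusted p = 4.05e-06, limma), and both turned to -0.50 and -1.03 after quantile normalization. Sod1 overlapped between the tissues, where 94% of all genes did not, at 0.26 ± 0.12 (adjusted p = 0.0625, limma), and turned to -0.37 with median centring and -1.39 after quantile normalization. The tissue direction of Sod1, Cat and Gpx1 therefore depends on the scaling, and that of Sod2, Prdx3, Gpx3, Gpx4 and Txnrd1 was the same under all 3.

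**Figure D5:**
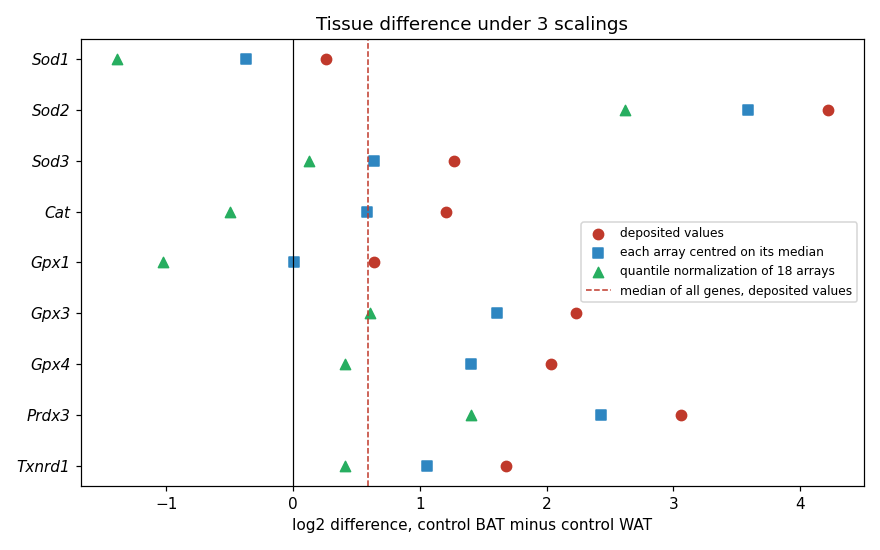
Log2 difference, control BAT minus control WAT, of the 9 genes with the deposited values, with each array centred on its median and after quantile normalization of 18 arrays, and a dashed line at the median of all genes, 0.59. Sod2 lies furthest right under each scaling (4.22, 3.59 and 2.61), and Sod1 moves from 0.26 to -1.39.

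Over the 18 arrays, 5 genes followed Sod2 most closely, by Pearson correlation of log2 levels with each tissue's mean removed. The search covered 6876 genes with a mean log2 level of at least 7. The differences between FXR and control arrays, by which Sod2 was chosen, remain in every correlation given here. The search therefore favours genes lower with FXR in BAT and higher in WAT, and correlation within groups was not tested. The 5 genes were Serp1 (r = 0.962), Lman1 (r = 0.942), Ggcx (r = 0.940), Cuta (r = 0.922) and Slc35f6 (r = 0.920). They are given as a description, since the arrays share their groups. Serp1 differed by -0.44 in BAT and 0.30 in WAT, and the other 4 differed by -0.35 to -0.17 in BAT and 0.14 to 0.24 in WAT. Among the enzymes described here the correlation with Sod2 was 0.72 for Sod3, 0.65 for Txnrd1, 0.41 for Prdx3, 0.40 for Gpx4, 0.38 for Cat, 0.12 for Sod1, -0.15 for Gpx3 and -0.31 for Gpx1.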

How the data were processed

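The deposited values are intensities of probe sets on a linear scale, 1 per array, and the sources used here do not give how the authors summarised and normalized them. Of 34760 probe sets, 21640 had 1 gene symbol in GEO's platform annotation, 1321 several and 11799 none listed, and for 954 genes with several probe sets the one with the highest mean over 18 arrays was used (19937 genes). Differences of log2(intensity + 1), with no filter, were tested in limma 3.58.1 (R 4.3.3; lmFit, then eBayes, two-sided), with Benjamini-Hochberg adjustment over all genes and a limit of 0.05. Tests set FXR against control within BAT and within WAT, the difference of both changes over 18 arrays, and control BAT with control WAT over 9. The procedure was tested on simulated data. The members and lists were chosen with earlier results of these data known. Named pathway genes were, per list and comparison, up to 3 called genes with the smallest adjusted p. Replicates are biological per the design text, and p-values reflect the spread between samples as labelled. Dim genes change less on this scale, and the number of arrays limits the precision. Alternatives were other scalings, another pseudocount (16), a filter on dim genes, a trended robust fit, the replicate number as a block, 1 fit of 18 arrays and omitted arrays. Promoter windows came from RefSeq's GRCm38.p6 table.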

Additional observations from a re-analysis of the deposited data

Results flagged for a closer look

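Sod3 was the 1 tested member whose change differed between the tissues by a test of the difference itself, where 6.47% of all genes differed. Its difference was 0.36 on the log2 scale, WAT change minus BAT change. With the replicate block the Sod3 call was lost (adjusted p = 0.0611, limma). The same test singled out genes of the related lists. Upward differences were Gpx8 at 1.06, Pgd, an NADPH-making enzyme of the pentose phosphate pathway, at 1.07 (adjusted p = 0.0284, limma), Msrb2 at 0.56, Sdhd at 0.35, Glrx5 at 0.34, Txn2 and Gclm at 0.33 each and Txnrd2 at 0.29. Downward differences were Nnt at -1.09 (adjusted p = 0.0494, limma), Mgst3 at -1.003, Gstt1, a glutathione transferase, at -0.62 (adjusted p = 0.0113, limma) and Sesn1 at -0.26. Omitting 1 array at a time lost the call of Nnt in 15 of 18 fits, of Sod3 in 12, of Pgd in 6 and of Gpx8 in 5. Quantile normalization ended the calls of Txnrd2, Gclm, Pgd, Glrx5, Sdhd and Txn2 (adjusted p = 0.105, 0.108, 0.107, 0.362, 0.376 and 0.421, limma) and of Nnt (0.0552). Nnt and muscle markers were both high on FXR BAT 1, 2 and 4, and without these arrays Nnt was at -0.46 (adjusted p = 0.00964, limma).

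For Sod2 every WAT array with FXR was above its controls and every BAT array with FXR below them, a difference of 0.70 that was not tested because it chose the gene. Dixon's test singled out 2 arrays among 36 groups of 4 or 5 arrays, where chance singles out about 1 in 20. Gpx4 read 2224 on control WAT 3, with a gap to the nearest array of 0.873 of the group's range, above the 95% critical value. Txnrd1 read 122 on control WAT 1, with a gap of 0.906 of the range, in a group that spans 119 to 122.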

How the results depend on the processing

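There were 20 alternatives for BAT, 16 for WAT, 27 for the difference and 16 for the tissue comparison. Omitting control BAT 2 and 4 left 1411 genes and 0 members called in BAT and 721 genes and 0 members for the difference; for the difference and the tissue comparison this setting was added after seeing the data. Omitting FXR BAT 1, 2 and 4 left 1914 genes in BAT and 0 members for the difference. Quantile normalization called 1 member in BAT (Gpx4, reversed to 0.16), 2 in WAT (Gpx1 and Gpx3), 2 for the difference (Sod3 and Gpx1) and 11577 genes between tissues, where Sod1 (-1.39), Cat (-0.50) and Gpx1 (-1.03) reversed; median centring called 5 members in BAT and reversed Sod1 between tissues (-0.37). Of the calls in BAT 44.5% were higher as deposited and 26.1% after centring; for the difference 68.6% and 84.1%, and between tissues 98.0%, against 46.7% centred and 40.8% after quantile normalization. A dim filter, which tested only genes above the 40% quantile of level, called 1 member in WAT and 11509 genes between tissues. That count is over fewer genes tested. A trended robust fit called 1 member in WAT, and 1 fit of 18 arrays called 411 genes in WAT, against 263. In BAT the 1 fit ended the call of Sod1 (adjusted p = 0.0988, limma) and the robust fit that of Txnrd1 (0.0657). Omitting 1 array gave 49 to 335 genes in WAT and 0 to 1 members for the difference. FXR and control arrays of 1 number correlated at -0.49 to 0.28 for BAT and 0.010 to 0.16 for WAT. BAT and WAT arrays of 1 number correlated at 0.059 to 0.13 with FXR and -0.082 to 0.26 in controls. Most of the latter lay above the highest correlation with another number, as 0.13 against -0.049 for FXR 1 and 0.26 against 0.092 for control 1. FXR 2 (0.10 against 0.12) and control 4 (-0.082 against 0.31) did not. Whether such arrays share a mouse is not known. The replicate block joined FXR and control arrays within a tissue, and no fit joined BAT and WAT arrays of 1 number. With the replicate block 3 members were called in BAT (Sod1, Cat and Prdx3) among 2738 genes, 0 in WAT among 237 genes and 0 for the difference among 1175 genes. In WAT 58.2% to 62.8% of probe sets were dim, in BAT 28.7% to 34.9%, which limits changes of low genes. The cause of these shifts was not tested.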

Other observations

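Endothelial markers, which the accounts above do not cover, included 1 rise and 3 falls of 8 in BAT, with sums of 2664 to 3395 in FXR BAT against 3494 to 4103 in control BAT, and 0 calls of 8 in WAT (limma, 1 at an unadjusted p under 0.05). Of all genes 15.7% were called in BAT and 1.32% in WAT. Of 3 erythroid markers 0 were called in either tissue (limma, 0 at an unadjusted p under 0.05). Gsr, which recycles oxidized glutathione, read lower on all 4 FXR WAT arrays than on the controls (-0.29 ± 0.06, SE, adjusted p = 0.0533, limma) and was named after its values were seen, beside -0.08 ± 0.06 in BAT (adjusted p = 0.413, limma).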
